A study of Mus musculus with 12 samples.

Results

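The genes described here make or mark contractile and mural cells, the smooth muscle cells and pericytes that wrap blood vessels. They are Acta2, Tagln, Des, Lmod1, Ldb3, Rgs5 and Cspg4. Every probe set whose platform annotation names 1 of these symbols and no other was taken, which gave 11 of the 20523 probe sets on the array. Rgs5 has 4 probe sets, Cspg4 has 2 and each of the other 5 genes has 1. In GRCm38.p6, Des lies at chr1:75360292-75368579, Lmod1 at chr1:135324813-135368065 and Rgs5 at chr1:169655501-169695813. Tagln lies at chr9:45929628-45936058, Cspg4 at chr9:56865104-56899870, Ldb3 at chr14:34526699-34590314 and Acta2 at chr19:34240336-34255585. Where in each gene a probe set lies was not analysed here. Together they are 7 of the 11015 genes that have such a probe set, and 0 probe sets name a member beside another symbol.

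Expression was measured with Affymetrix arrays in cultured aortic endothelial cells of 4-week-old mice, the cells that line the vessel. The question in the title is how these cells differ when the transcription factors Ets1, Ets2 or both are missing. WT cells carried Ets1+/+; Ets2+/+ and received lentiviral-egfp. Ets1KO cells carried Ets1-/-; Ets2fl/fl and received the same virus, so that their floxed Ets2 stayed uncut. Ets2KO cells carried Ets1+/+; Ets2fl/fl, and DKO cells Ets1-/-; Ets2fl/fl, and both received lentiviral-egfp-Cre. Cre is thus present wherever Ets2 was targeted and absent elsewhere, and the effect of Cre cannot be told apart from loss of Ets2. The virus acts on every cell of a culture that it enters, whatever its type. Short descriptions of the Ets1KO and Ets2KO samples read wild type, while titles and genotypes say null, and grouping follows the latter.

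Each group has 3 columns of log2 values, where a difference of 1 is a 2-fold change. In 20521 of 20523 probe sets the third DKO column matches the average of its 2 fellows to within 1e-05. It is not used, so that 11 arrays are analysed and DKO has 2. Median values are 8.28 to 8.30 in the DKO columns and 9.05 to 9.15 in the 9 others, and comparisons with DKO therefore use values minus each array's median. Ets1 was 10.05 ± 0.21 in WT (SD, n = 3), 8.74 ± 0.43 in Ets1KO (n = 3) and 10.02 and 10.29 on the 2 arrays labelled DKO, whose genotype should lack it. Ets2 was 10.14 ± 0.51 in WT and 9.70 ± 0.40 in Ets2KO (n = 3 each), and the groups overlapped. It read 9.63 and 11.02 on the arrays labelled DKO, and relative to array medians it averaged 2.03 there, against 1.05 in WT and 0.63 in Ets2KO. Neither targeted gene was therefore low on average on these arrays. Whether the 2 probe sets lie in the deleted parts was not analysed here, and a probe set outside them would not check the label. Because of these readings, the 2 arrays are called the arrays labelled DKO throughout.

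Smooth muscle cells shorten by sliding myosin along actin filaments, and the genes for this machinery are switched on together by serum response factor (SRF). SRF binds a short DNA element called the CArG box, and its partners myocardin and the MRTF proteins raise its activity there. Some ETS family proteins, the ternary complex factors, compete with those partners for SRF. Pericytes sit on capillaries within the same basement membrane as the endothelium and are recruited by PDGF-B. In vessel walls these genes belong to cells around the endothelium, but cultured endothelial cells can also take them up when they turn towards a mesenchymal state.

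The upstream sequence of the members was read for the CArG box, because the contractile genes are known through it, and for GGAA, the core of the sites that ETS proteins bind. RefSeq entries for GRCm38.p6 were found for 6 of the 7 genes, and the 250 bases before each listed start were searched on both strands. Tagln had no entry. A CArG box was taken as CC, then 6 bases that are each A or T, then GG. Of 27025 promoters, 1.4% held it, and 7.38% held a form with 1 other base among the 6. Ldb3 held the strict form 35 to 26 bases before its start. Acta2 held the looser form at 84 to 75 and again at 34 to 25 bases before its start. Des, Lmod1, Rgs5 and Cspg4 held neither form in this window. Each match is shown in capitals with 10 bases on either side, 5′ to 3′ on the gene's strand. RefSeq's full extent of Acta2 and of Ldb3 reaches past these stretches, so that they lie upstream of the listed start but inside the annotated gene.
Acta2, chr19:34255438-34255467, minus strand: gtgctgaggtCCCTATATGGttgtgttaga
Acta2, chr19:34255388-34255417, minus strand: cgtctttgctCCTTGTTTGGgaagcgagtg
Ldb3, chr14:34588697-34588726, minus strand: gggttacagtCCATTTATGGgcgcagcaag

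GGAA was present in 93.4% of the same 27025 promoters, and the longer ETS form CCGGAAGT in 2.93%. None of the 6 members held CCGGAAGT. GGAA or its complement TTCC occurred 3 times each in Acta2, Des and Rgs5, 2 times in Lmod1, 1 time in Cspg4 and 0 times in Ldb3. The Acta2 copy nearest the start, at 25 to 22 bases, begins on the last G of the second CArG-type match. The Rgs5 window is printed because Rgs5 varied most between the arrays, with GGAA and TTCC in capitals. It ends 1 base before the annotated gene.
Rgs5, chr1:169655251-169655500, plus strand: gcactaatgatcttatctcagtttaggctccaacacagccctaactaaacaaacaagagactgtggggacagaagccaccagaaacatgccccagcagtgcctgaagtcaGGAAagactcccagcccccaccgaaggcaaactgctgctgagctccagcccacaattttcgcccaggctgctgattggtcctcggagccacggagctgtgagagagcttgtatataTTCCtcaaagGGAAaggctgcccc

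In the arrays themselves, 2 of the 7 genes set the Ets2KO cells apart from WT without overlap: Acta2 was lower on all 3 Ets2KO arrays and Rgs5 was higher on all 3. Neither difference passed the test across all probe sets, and 28.4% of all probe sets were likewise without overlap. Des, Lmod1, Ldb3, Tagln and Cspg4 overlapped between Ets2KO and WT. Ets1KO overlapped with WT for each of the 7 genes, where 18.5% of all probe sets were without overlap. On both arrays labelled DKO, Acta2 was above and Rgs5 below every Ets2KO array. In this comparison 58.4% of all probe sets were without overlap relative to array medians. Relative to array medians Acta2 and Rgs5 were the only members that passed the test between these arrays and Ets2KO, where 35.2% of all probe sets passed. By their sex-linked genes the Ets2KO arrays are male and the arrays labelled DKO female, so that sex and group cannot be told apart in that comparison.

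**Figure D1:**
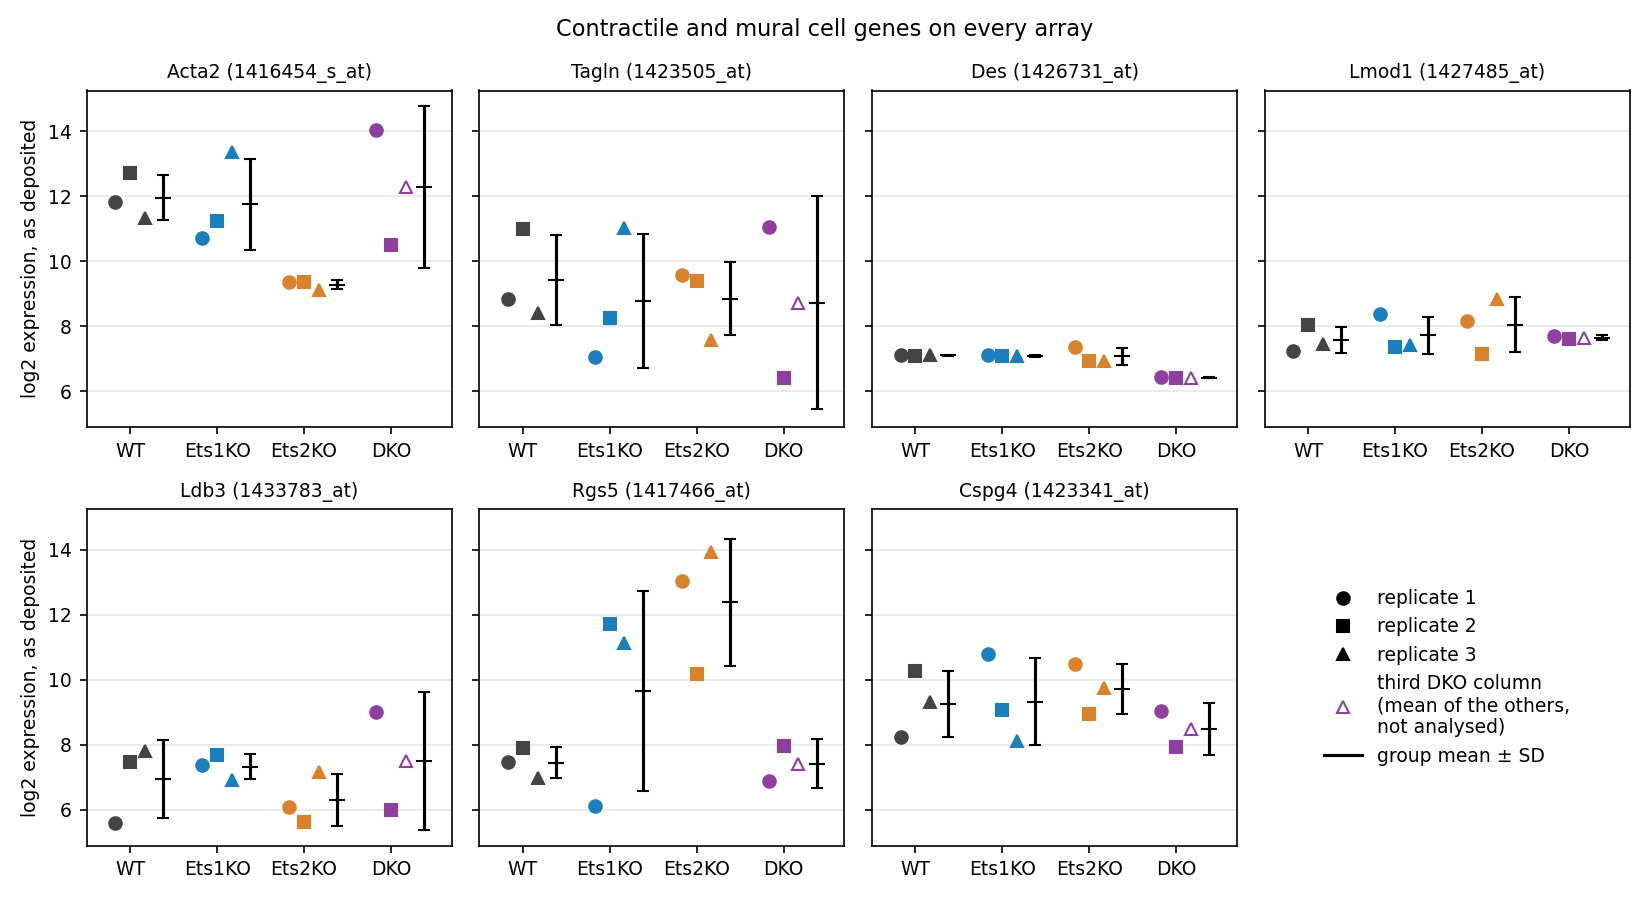
Deposited log2 expression of each gene on every array, by group, with the group mean and SD as bars; for Rgs5 and Cspg4 the probe set with the highest mean is drawn, and the open triangle is the third DKO column, which is in no mean. Acta2 lies between 9.12 and 9.36 on the Ets2KO arrays and above 10.5 on the others, and Rgs5 spans 6.11 to 11.71 within Ets1KO.

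Acta2 encodes smooth muscle alpha-actin, the actin isoform of the contractile filament. Its probe set 1416454_s_at read 11.81, 12.70 and 11.34 on WT replicates 1 to 3. In Ets1KO it read 10.70, 11.23 and 13.35. In Ets2KO it read 9.36, 9.35 and 9.12. The Ets2KO arrays were thus the lowest 3 of the 9 and lay within 0.24 of each other, while Ets1KO spanned 2.65. The arrays labelled DKO read 14.05 and 10.51, which are 5.75 and 2.21 above their own medians, where Ets2KO was 0.04 to 0.29 above. Both therefore lay above every Ets2KO array, and the first was the highest of the 11.

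Acta2 in Ets2KO differed from WT by -2.67 (SE 0.91), a level 6.38-fold lower. By limma the adjusted p was 0.155. The exact permutation p of 0.1 is the lowest possible with 3 arrays on each side. From Ets1KO it differed by -2.48 (SE 0.91, limma adjusted p = 0.157). The arrays labelled DKO stood 3.77 above Ets2KO relative to array medians (SE 1.01, limma adjusted p = 0.0185). That call rests on the first of these arrays: without it the difference was 2.01 (adjusted p = 0.136), where the lone array that remains is assumed to vary like the other groups. With only the Ets2KO and DKO arrays in the fit the adjusted p was 0.0556. Against WT the arrays labelled DKO were 1.12 higher (adjusted p = 0.414) and against Ets1KO 1.36 higher (adjusted p = 0.32). In bulk RNA, fewer cells that express a gene and less RNA in each cell cannot be told apart, here and below.

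Tagln encodes transgelin (SM22), an actin-binding protein that appears early in smooth muscle differentiation. Probe set 1423505_at read 8.84, 10.995 and 8.42 in WT. It read 7.03, 8.26 and 11.03 in Ets1KO and 9.58, 9.39 and 7.56 in Ets2KO. The arrays labelled DKO read 11.04 and 6.39. High and low arrays occurred in each of the 4 groups. The SD within groups was 1.90, above that of 99.6% of probe sets, where the median probe set had 0.281. The Ets2KO mean differed from WT by -0.57 with an SE of 1.36, so a change of several log2 units in either direction could not be resolved. No comparison of Tagln passed the test, and its limma adjusted p lay between 0.676 and 0.984 over the 7 comparisons.

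As deposited, Acta2 and Tagln ordered the arrays in the same way inside each group. Replicate 2 was highest and replicate 3 lowest in WT for both genes. Replicate 3 was highest in Ets1KO, replicate 1 in Ets2KO and the first array among those labelled DKO. In Ets2KO replicates 1 and 2 were nearly tied for Acta2, and they change places relative to array medians. With group means removed, their correlation was 0.953 over the 11 arrays and 0.925 over the 9 without those labelled DKO. Without removing them it was 0.662 and 0.55. The arrays share their normalization, and these values are a description of them. The Ets2KO arrays lay apart from the rest of this relation: their Acta2 was low while Tagln, at -1.52 to 0.51 relative to array medians, lay within the range of WT and Ets1KO, -2.10 to 1.89. Myl9, a myosin light chain chosen here after its values were seen, had the same order of arrays in WT and Ets1KO and the opposite order in Ets2KO.

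**Figure D2:**
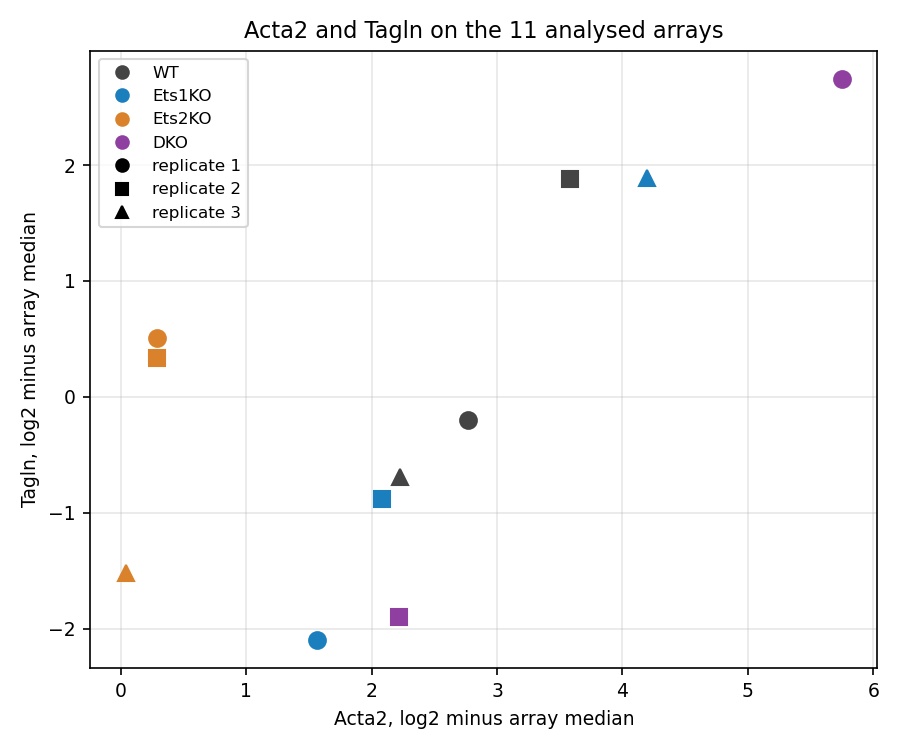
Acta2 against Tagln, both as log2 minus the array median, for each of the 11 analysed arrays; colour is the group and shape the replicate. The 3 Ets2KO arrays sit at the left edge, with Acta2 at 0.04 to 0.29, and the first array labelled DKO sits at the upper right, with Acta2 at 5.75.

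Des encodes desmin, the intermediate filament of muscle cells. Probe set 1426731_at read 7.11, 7.08 and 7.09 in WT and 7.11, 7.07 and 7.08 in Ets1KO. It read 7.37, 6.91 and 6.94 in Ets2KO and 6.43 and 6.40 on the arrays labelled DKO. It was the steadiest of the members, with an SD within groups of 0.14, and 12.3% of probe sets had a smaller one. On the deposited scale Des fell by 0.68 on the arrays labelled DKO against WT (limma adjusted p = 0.00556), where 48.8% of all probe sets passed in either direction. Relative to array medians it was 0.11 higher (SE 0.16, adjusted p = 0.605). The direction of Des in that comparison is therefore set by the scale.

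Lmod1 encodes leiomodin 1, which starts new actin filaments in smooth muscle. Probe set 1427485_at read 7.25, 8.02 and 7.44 in WT and 8.37, 7.35 and 7.41 in Ets1KO. It read 8.17, 7.14 and 8.83 in Ets2KO and 7.70 and 7.59 on the arrays labelled DKO. The groups WT, Ets1KO and Ets2KO overlapped throughout. Ets2KO was 0.47 above WT (SE 0.43, limma adjusted p = 0.569). Relative to array medians the arrays labelled DKO lay above all WT and all Ets1KO arrays, by 0.87 (adjusted p = 0.184) and 0.77 (adjusted p = 0.233) on average. As deposited they overlapped with both groups and differed by 0.07 and -0.07, so that this separation depends on the scale.

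Ldb3 encodes a PDZ and LIM domain protein (ZASP, or Cypher) that anchors alpha-actinin at the Z-disc of striated muscle. Probe set 1433783_at read 5.57, 7.47 and 7.80 in WT and 7.38, 7.66 and 6.91 in Ets1KO. It read 6.08, 5.63 and 7.16 in Ets2KO and 9.001 and 5.98 on the arrays labelled DKO. The first array labelled DKO was the highest of the 11, as it was for Acta2 and Tagln, and the lowest was WT replicate 1. Ldb3 did not pass the test in any of the 7 comparisons. Relative to array medians the arrays labelled DKO averaged 1.34 above WT (limma adjusted p = 0.272) and 1.98 above Ets2KO (adjusted p = 0.116). The high array taken alone stood 2.84 and 3.48 above these groups.

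Rgs5 encodes a regulator of G protein signalling that shortens signals from G protein-coupled receptors, and it is a widely used pericyte marker. Probe set 1417466_at read 7.45, 7.90 and 6.97 in WT. It read 6.11, 11.71 and 11.13 in Ets1KO and 13.03, 10.18 and 13.93 in Ets2KO. The arrays labelled DKO read 6.89 and 7.94, just below and just above the WT range. The lowest Ets2KO array stood 2.27 above the highest WT array. Ets1KO was split, with replicate 1 below all 3 WT arrays and replicates 2 and 3 above all of them.

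The other 3 Rgs5 probe sets ordered the WT, Ets1KO and Ets2KO groups alike. Probe set 1420941_at read 5.74 to 6.51 in WT, 5.59, 10.05 and 9.52 in Ets1KO, and 8.52 to 12.86 in Ets2KO. Probe set 1420942_s_at read 5.35 to 5.60 in WT, 4.44, 9.13 and 8.63 in Ets1KO, and 7.58 to 12.07 in Ets2KO. Probe set 1420940_x_at read 5.68 to 5.92 in WT, 5.63, 8.40 and 7.67 in Ets1KO, and 6.72 to 10.59 in Ets2KO. All 4 thus put every Ets2KO array above every WT array and split Ets1KO in the same way. On the arrays labelled DKO they differed: 1420941_at read 5.38 and 6.96, on either side of the WT range. Probe set 1420942_s_at read 4.663 and 4.603 and 1420940_x_at read 4.78 and 4.92, all below WT as deposited, while relative to array medians both overlapped with WT. Correlations between the 4 were 0.955 to 0.992 over the 11 arrays, and they are annotated to the same gene, so that they count as repeat readings of 1 gene.

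Against WT, the 4 probe sets were higher in Ets2KO by 4.94 (SE 1.42), 4.83 (SE 1.30), 4.70 (SE 1.33) and 3.11 (SE 0.94), in the order just given. These are 30.7-fold, 28.4-fold, 25.9-fold and 8.64-fold. By limma their adjusted p was 0.112, 0.102, 0.11 and 0.124, and each had an exact permutation p of 0.1. In Ets1KO the differences from WT were 2.21, 2.25, 1.92 and 1.45, with adjusted p of 0.629 to 0.695. Without Ets1KO replicate 1 the first of these was 3.98 (adjusted p = 0.38). Both comparisons share the WT arrays. Ets2KO exceeded Ets1KO by 1.66 to 2.78, with overlap and adjusted p of 0.255 to 0.329.

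**Figure D3:**
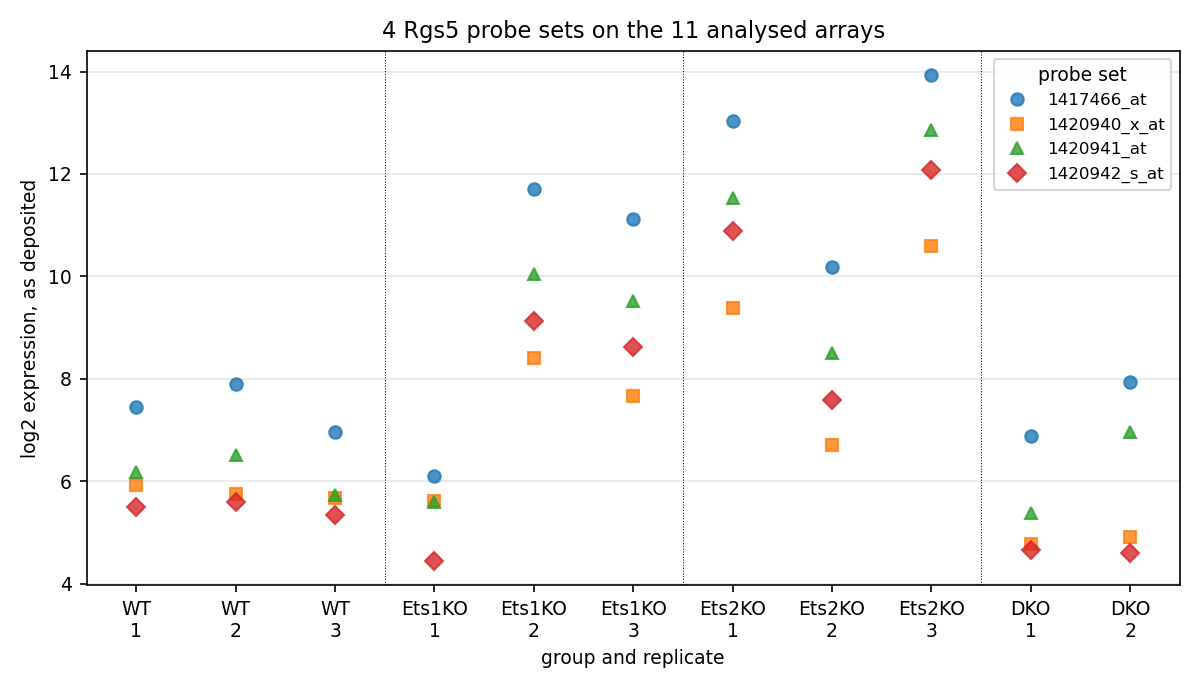
Deposited log2 values of the 4 Rgs5 probe sets (marker shape and colour) on each of the 11 analysed arrays, ordered by group. The 4 move together from array to array, with Ets1KO replicate 1 at 4.44 to 6.11, near WT, and Ets1KO replicates 2 and 3 at 7.67 to 11.71.

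Between the arrays labelled DKO and Ets2KO, 2 Rgs5 probe sets were lower in the test relative to array medians, where 14.9% of all probe sets were. Probe set 1420942_s_at fell by 4.77 (SE 1.47, limma adjusted p = 0.0328) and 1420940_x_at fell by 3.27 (SE 1.04, adjusted p = 0.0372). These are the dimmest of the 4, and only 12.8% and 7.79% of probe sets had a lower mean. The differences of the other 2, 1417466_at and 1420941_at, were -4.19 (adjusted p = 0.0665) and -4.02 (adjusted p = 0.0575). All 4 were lower on both arrays labelled DKO than on any Ets2KO array. The calls of the first 2 held in 7 and 4 of the 11 fits that each left out 1 array. Both were lost without Ets2KO replicate 1 or 3 and without either array labelled DKO. Leaving out WT replicate 1 or 2, or Ets1KO replicate 3, also ended that of 1420940_x_at. Against WT the 4 differences were -0.14 to 0.83 relative to array medians, with adjusted p of 0.687 to 0.981.

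Cspg4 encodes the NG2 proteoglycan on the surface of pericytes and immature smooth muscle cells. Probe set 1423341_at read 8.23, 10.26 and 9.30 in WT and 10.78, 9.06 and 8.12 in Ets1KO. It read 10.48, 8.95 and 9.73 in Ets2KO and 9.04 and 7.91 on the arrays labelled DKO. The second, 1450944_at, ran from 8.40 to 10.27 over the 11 arrays, with a correlation of 0.884 to the first. The 4 groups overlapped for both as deposited. Ets2KO was 0.46 (SE 0.74) and 0.52 (SE 0.54) above WT, with limma adjusted p of 0.767 and 0.619. Cspg4 did not follow Rgs5, with which its correlation lay between -0.06 and 0.08 over the 11 arrays. It ran closest to Lmod1 among the members, at 0.611 and 0.769 for its 2 probe sets.

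Counts over the members can be set against the whole array. Between Ets1KO and WT, 0 of the 11 probe sets passed a limma adjusted p of 0.05, where 0.00487% of all probe sets did. At an unadjusted p below 0.05 there were also 0, against 9.26% of all, and 0 of the 11 were without overlap, against 18.5%. Between Ets2KO and WT, 0 of 11 passed, with 0.580% of all probe sets. At an unadjusted p below 0.05 there were 5, all in Acta2 and Rgs5, against 20.7% of all probe sets. The same 5 were without overlap, which is 45.5% of the member probe sets against 28.4% of all, and they come from 2 genes. Between Ets2KO and Ets1KO, 0 of 11 passed against 2.50% of all, and 1, Acta2, was without overlap against 35.1%. At an unadjusted p below 0.05 there was also 1, against 22.3%.

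Comparisons with the arrays labelled DKO have a much larger background, and its direction depends on the scale. Against WT, 21.6% of all probe sets were called higher and 14.4% lower relative to array medians, and 2.87% higher and 46.0% lower as deposited. The median probe set differed by 0.16 and by -0.63 on these scales. Against WT, 0 of 11 member probe sets passed where 36.0% of all probe sets did, and 2 were without overlap against 56.4%. Against Ets1KO, 0 of 11 passed where 35.4% did, and 2 were without overlap against 62.5%. Against Ets2KO, 3 of 11 passed, or 27.3%, where 35.2% of all did, and 5 were without overlap against 58.4%. These 3 are Acta2, which rose, and the 2 Rgs5 probe sets that fell, and their share is near that of the whole array. At an unadjusted p below 0.05 the counts in these comparisons were 0, 0 and 5, against 46.2%, 46.2% and 45.8% of all. On the deposited scale 6 of 11 passed against Ets2KO where 48.8% of all did.

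**Figure D4:**
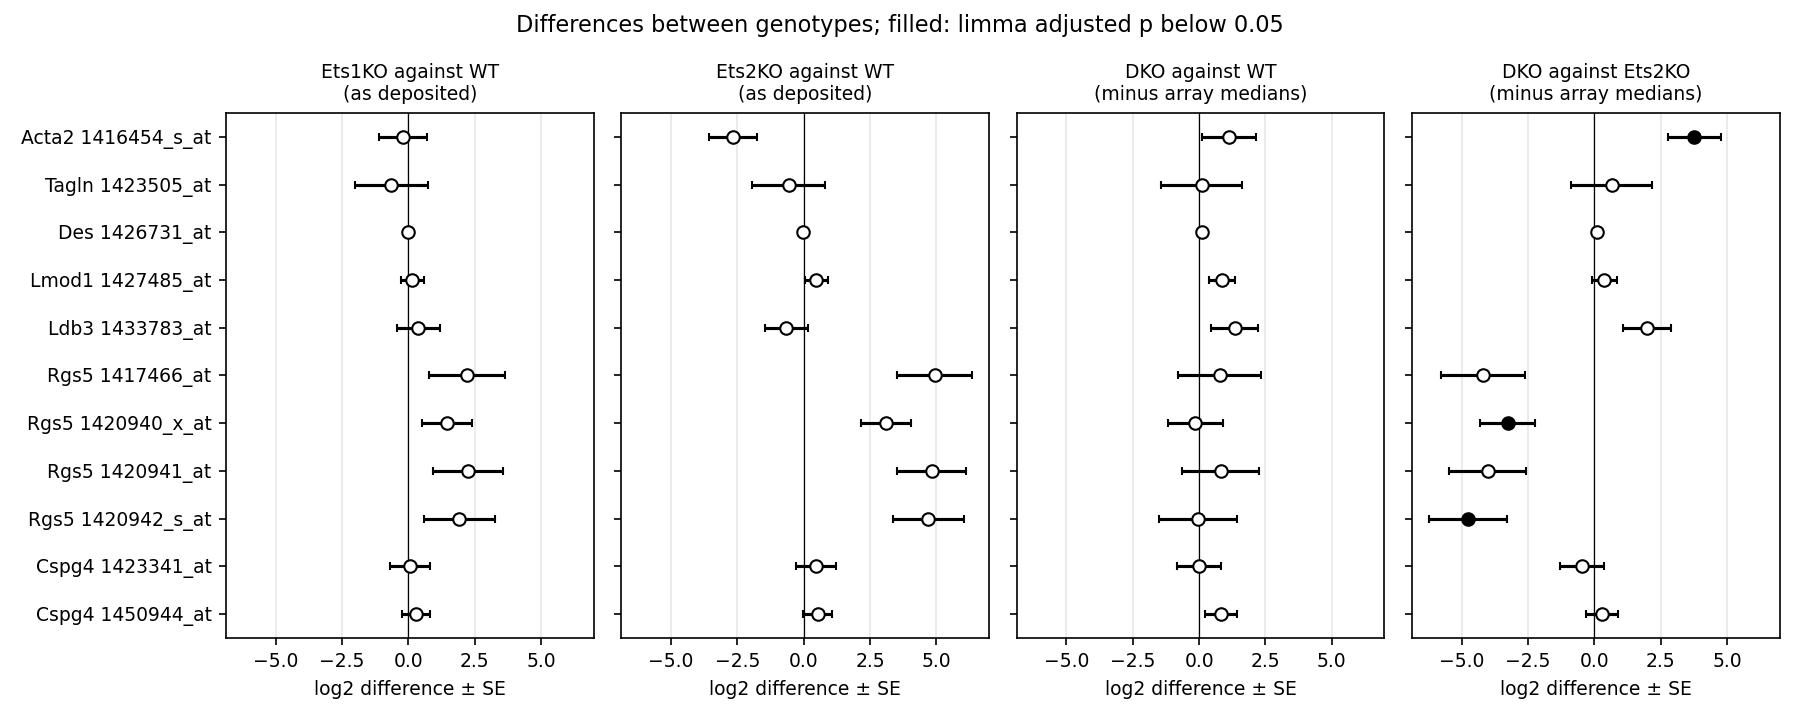
Log2 difference with its limma SE for the 11 member probe sets in 4 of the comparisons; filled points have an adjusted p below 0.05, and comparisons with DKO use values minus array medians. Filled points occur in the comparison of DKO with Ets2KO, at 3.77 for Acta2 and at -3.27 and -4.77 for Rgs5.

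The design also asks whether loss of Ets2 with Cre acts differently in cells without Ets1, which is the interaction of the 2 genotypes. Of the 11 probe sets, 2 passed the limma test, or 18.2%, where 19.7% of all probe sets did. At an unadjusted p below 0.05 there were 5, against 35.0%. The 2 that passed belong to Rgs5: the term, Ets1-null cells less cells with Ets1, was -6.64 (SE 1.98, adjusted p = 0.0443) for 1420942_s_at and -4.67 (SE 1.40, adjusted p = 0.0454) for 1420940_x_at. The other 2 gave -6.35 (adjusted p = 0.0645) and -6.22 (adjusted p = 0.0525). Acta2 pointed the other way, at 4.02 (SE 1.35, adjusted p = 0.0664). With 1 probe set per gene, 0 passed. Leaving out 1 array at a time gave 0 to 4, with 4 without Ets1KO replicate 1 or without Ets2KO replicate 2, 1 without Ets1KO replicate 3 or the second array labelled DKO, and 0 without any of the other 7. Each Rgs5 call held in 2 of these 11 fits and was lost under the replicate block. The term rests on the arrays labelled DKO, on which neither Ets1 nor, on average, Ets2 was low. Both Ets1-null groups carry floxed Ets2, whereas Ets2KO carries it and WT does not. By their sex-linked genes both Ets1-null groups read as female and Ets2KO as male, while WT holds both. Sex and the floxed alleles therefore cannot be told apart from the interaction.

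Most members differed more between arrays of 1 genotype than a typical probe set. The pooled SD within groups was above that of 99.7% of probe sets for Rgs5 (1417466_at), 97.5% for Acta2, 96.4% for Ldb3, 95.6% for Cspg4 (1423341_at) and 85.2% for Lmod1. Together with Tagln, 6 of the 7 genes lay in the upper part of this range and Des in the lower part. Titles call the replicates biological, but nothing else says that they came from separate animals, so that the p-values measure the spread between these samples, which may be technical.

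The mean levels of other mural cell markers overlapped between WT and Ets2KO, where Acta2 and Rgs5 did not. Of 20 further smooth muscle genes listed, 12 have a probe set of their own on the array, and Myh11, Cnn1, Myocd and Actg2 were not analysed here. Their mean level per array, minus the array median, was -0.23 to 1.24 in WT and -0.01 to 0.66 in Ets2KO. It was 0.10 to 0.64 in Ets1KO and 1.55 and 0.00 on the arrays labelled DKO, the first of which also had the highest Acta2. In WT it was highest on replicate 2 and lowest on replicate 3, as Acta2 was. In Ets1KO and Ets2KO its order of arrays differed from that of Acta2. Against WT, 0 of 12 passed the limma test in Ets1KO and 0 of 12 in Ets2KO. The median differences were 0.00 and -0.28, where all 11015 genes had 0.01 and -0.02.

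In Ets2KO the largest differences of this list from WT were in Fhl1, a LIM domain protein of muscle, at -2.03 (limma adjusted p = 0.283), and Itga8, the alpha8 integrin, at -1.32 (adjusted p = 0.682). Cald1, the thin filament regulator caldesmon, was at -1.05 and Mustn1 at 0.83, and the groups overlapped for all 4. On the arrays labelled DKO, 1 of 12 rose against WT, Fhl1 by 3.74 (adjusted p = 0.0276), and 1 fell, the tropomyosin Tpm1 by 1.46 (adjusted p = 0.00974), among 21.6% and 14.4% of all probe sets. Against Ets2KO Fhl1 rose by 5.75 (adjusted p = 0.00443) and the creatine kinase Ckb fell by 2.83 (adjusted p = 0.0365), 1 of 12 each way among 20.2% and 14.9% of all probe sets. Tpm1 and Ckb are named after their values were seen.

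Of 14 pericyte genes listed, 7 were measured, and 0 passed in Ets1KO or Ets2KO against WT. The list's mean was -1.16 to -0.66 in WT and -1.48, -1.21 and 0.29 in Ets2KO, so that it was high on 1 of the 3 Ets2KO arrays. On that array, replicate 3, both the list's mean and Rgs5 were the highest of the 11 arrays. The list's mean was -1.14 and -1.63 on Ets1KO replicates 2 and 3, where Rgs5 was also high, and 0.15 on the first array labelled DKO, where Rgs5 was low. Notch3, the receptor that keeps mural cells differentiated, was 1.16 higher in Ets2KO (limma adjusted p = 0.392). Mcam, an adhesion molecule shared with endothelium, was at -1.13 (adjusted p = 0.438), Anpep at 0.48 and Angpt1 at -0.23. Pdgfrb, the receptor through which pericytes are recruited, read 11.13 to 11.91 in WT and 11.02 to 12.08 in Ets2KO, and the groups overlapped. Against Ets2KO, 1 of 7 rose on the arrays labelled DKO, Mcam by 2.63 (adjusted p = 0.041), where 20.2% of all probe sets rose.

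Endothelial identity could be checked with 6 of 20 listed genes, Kdr, Flt1, Egfl7, Plvap, Cd34 and Eng, and Pecam1, Cdh5 and Tek were not analysed here. Their mean was -0.64 to 0.62 in WT, -1.30 to -0.97 in Ets1KO, -0.24 to 0.58 in Ets2KO and -0.94 to -0.78 on the arrays labelled DKO. Every Ets1KO array and both arrays labelled DKO thus lay below every WT array, and 0 of 6 genes passed in either comparison. In Ets1KO Cd34 was at -3.25 (limma adjusted p = 0.47), without overlap, as were 18.5% of all probe sets. In Ets2KO against WT, Plvap was at 1.24 (limma adjusted p = 0.285), Eng at 0.86, Cd34 at -0.16 and Kdr at -0.13, and 0 of 6 passed. Fibroblast genes (11 of 14) averaged 0.19 to 0.78 in WT and -0.12 to 1.20 in Ets2KO. Among them Dpt was at 2.23 in Ets2KO against WT (adjusted p = 0.1) and Col1a1 at -2.17 (adjusted p = 0.0904), with Col3a1 at -0.94 and Pdgfra at 0.92. Dpt and Col1a1 were without overlap, as were 28.4% of all probe sets. Of the list, 0 of 11 passed.

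Between the arrays labelled DKO and Ets2KO, where Acta2 and Rgs5 had their calls, genes of these lists passed too. Of the endothelial genes 2 of 6 fell, Plvap by 2.42 (limma adjusted p = 0.0253) and Eng, the TGF-beta co-receptor endoglin, by 2.19 (adjusted p = 0.0161). Of the fibroblast genes 2 of 11 rose, the collagen genes Col1a1 by 3.49 (adjusted p = 0.00256) and Col1a2 by 2.33 (adjusted p = 0.0165), and Dpt, a matrix protein gene, fell by 4.09 (adjusted p = 0.00186). Among all probe sets 20.2% rose and 14.9% fell in this comparison. Col1a2 is named after its values were seen.

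Adipocyte genes moved with the Ets2KO group in part. The 7 measured of 12 averaged -0.81, -1.61 and 1.07 in WT, -1.997 to -1.48 in Ets1KO, 0.12, 1.13 and 2.12 in Ets2KO and -1.51 and -1.02 on the arrays labelled DKO. All 7 had a mean above WT in Ets2KO and 0 passed, with Adipoq (adiponectin) at 4.55 (limma adjusted p = 0.234), Pparg at 2.00, Cebpa at 1.73 (adjusted p = 0.0877) and Plin4 at 1.30. On Ets2KO replicate 3 the list's mean and Rgs5 were both the highest of the 11 arrays. Adipoq was also high in WT replicate 3, at 10.89, where Rgs5 was the lowest of the WT arrays at 6.97. On Ets1KO replicates 2 and 3, where Rgs5 was high, Adipoq was 3.63 and 3.80. Between the arrays labelled DKO and Ets2KO, where Rgs5 was low, all 7 adipocyte genes had a lower mean and 3 passed, where 14.9% of all probe sets fell. Cebpa fell by 3.701 (adjusted p = 0.000639), the lipase gene Lipe fell by 2.70 (adjusted p = 0.00483) and Retn, resistin, fell by 0.97 (adjusted p = 0.00416), with Adipoq at -5.55 (adjusted p = 0.0775). Lipe and Retn are named after their values were seen.

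Markers of other cells that a culture from the aorta may hold were read as well. Macrophage and leukocyte genes (5 of 15) averaged -1.91 to -1.36 in WT and -2.34 to -1.97 in Ets2KO, without overlap, and 0 of 5 passed. Cd14 was at -1.26, Cd68 at -1.05, Cd3e at -0.20 and Lyz2 at -0.14 in Ets2KO against WT. Striated muscle genes (3 of 20) averaged -1.85 to -1.68 in WT and -1.79 to -1.70 in Ets2KO, with Tnnc1 at -0.11, Tcap at 0.07 and Myoz1 at 0.06. Schwann cell and neuron genes (4 of 10) averaged -1.40 to -0.47 and -1.59 to -0.46, with Tubb3 at -1.71 and S100b at 0.40. Between the arrays labelled DKO and Ets2KO, 2 of the 5 macrophage and leukocyte genes rose and 1 of the 3 striated muscle genes fell. Of the 4 Schwann cell and neuron genes 0 passed. Among all probe sets 20.2% rose and 14.9% fell in this comparison. The part of these lists in the differences of Acta2 and Rgs5 was not tested.

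**Figure D5:**
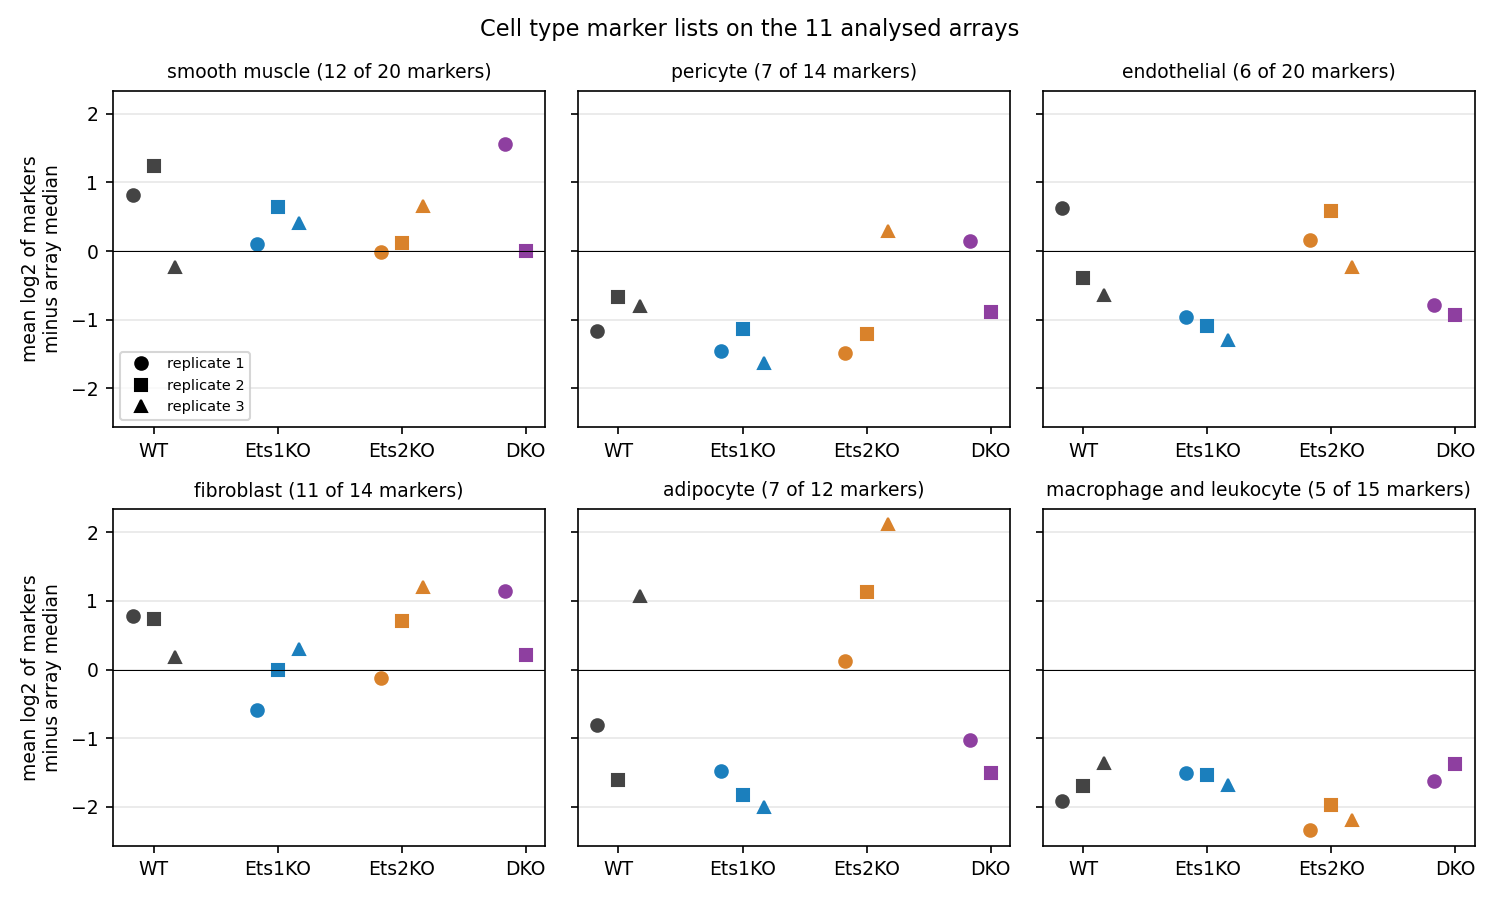
Mean log2 of the measured markers of each cell type, minus the array median, on the 11 analysed arrays (shape is the replicate). Smooth muscle, pericyte and fibroblast lists overlap between WT and Ets2KO, and the adipocyte list is highest on Ets2KO replicate 3, at 2.12.

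The sex-linked genes Xist and Eif2s3y also split the arrays. Xist read 7.26 to 7.50 and Eif2s3y 9.30 to 10.23 on WT replicate 1 and the 3 Ets2KO arrays, as in male cells. On the 7 others Xist read 11.45 to 13.52 and Eif2s3y 3.12 to 3.66. Every Ets2KO array thus reads as male, and every Ets1KO array and array labelled DKO as female. In the comparisons of Ets2KO with those groups, the calls of Acta2 and Rgs5 included, sex and group cannot be told apart. WT holds both, and on its male array Rgs5 was 7.45 and Acta2 11.81, where the female arrays were 6.97 and 7.90, and 12.70 and 11.34. The part of sex in the differences between Ets2KO and WT was not tested.

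Of 31 regulators of the contractile program listed, 25 were measured and 0 passed in Ets1KO or Ets2KO against WT. Srf itself was at -0.27 in Ets2KO (limma adjusted p = 0.7). The largest differences were in Jag1, a Notch ligand, at 1.26, and Mef2c, a muscle transcription factor that is also active in endothelium, at 1.12. Klf4, a repressor of smooth muscle genes, was at -1.08 (adjusted p = 0.121), and Tgfb2 at -1.05. Klf4 was without overlap, as were 28.4% of all probe sets. Other genes of the list were too, among them Notch1 at 0.94 (adjusted p = 0.0618) and Tead1 at -0.87 (adjusted p = 0.0625). On the arrays labelled DKO 5 of 25 rose and 2 fell against WT, among 21.6% and 14.4% of all probe sets. Mef2c rose by 3.72 (adjusted p = 0.00322) and Notch1 fell by 1.26 (adjusted p = 0.00219). Notch1 and Tead1 are named after their values were seen.

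SRF and MRTF also drive cytoskeletal genes outside muscle. Of 23 listed, 21 were measured and 0 passed in Ets1KO or Ets2KO against WT. In Ets2KO 14 of the 21 were below WT, with a median of -0.20 against -0.02 over all genes. Ankrd1 was at -2.36 (limma adjusted p = 0.436), Ccn1 at -1.93 and Ccn2 at -0.86, which are matricellular or stretch-responsive genes. Tagln2, a relative of Tagln, was at -0.72 (adjusted p = 0.232), without overlap, as were 28.4% of all probe sets. On the arrays labelled DKO 4 of 21 rose and 3 fell against Ets2KO, where 20.2% and 14.9% of all probe sets did. They include vinculin (Vcl), which rose by 1.04 (adjusted p = 0.0151), and zyxin (Zyx), which fell by 1.52 (adjusted p = 0.0059). Vcl and Zyx are named after their values were seen.

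Relatives of the members were compared to see whether the changes were shared by their families. Of 38 listed, 23 were measured and 0 passed in Ets1KO or Ets2KO against WT. Among RGS genes in Ets2KO, Rgs16 was at -1.89 (limma adjusted p = 0.313) and Rgs2 at 1.47 (adjusted p = 0.119), both without overlap, so that they lay on opposite sides of WT. Rgs3, at 0.91 (adjusted p = 0.0881), and Rgs19, at -0.52 (adjusted p = 0.146), were also without overlap, as were 28.4% of all probe sets. The PDZ and LIM gene Pdlim4 was at 1.20 and the filamin Flnc at -1.02. Against Ets2KO, Rgs16 rose by 5.02 on the arrays labelled DKO (adjusted p = 0.00888), where Rgs5 was low, and Rgs11 rose by 1.42 (adjusted p = 0.0256). Rgs3 at -2.29 (adjusted p = 0.00029), Rgs12 at -1.59 (adjusted p = 0.00501) and Rgs17 at -2.85 (adjusted p = 0.0237) had the direction of Rgs5. Rgs3, Rgs11, Rgs12, Rgs17 and Rgs19 are named after their values were seen. In all, 4 of 23 rose and 5 fell in that comparison, among 20.2% and 14.9% of all probe sets.

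Genes of mural cell recruitment (14 of 20) and of the endothelial to mesenchymal transition (14 of 16) gave 0 passing members in Ets1KO and Ets2KO against WT. S1pr3, a sphingosine-1-phosphate receptor, was 2.59 higher in Ets2KO (limma adjusted p = 0.106), without overlap, with Hbegf at -1.08, Pdgfra at 0.92 and Cdh2 at -0.90. Of the transition genes Tnc was at -2.45, Snai2 at 1.66 and Postn at 1.61, each without overlap, and Tgfb2 at -1.05. Among all probe sets 28.4% were without overlap between Ets2KO and WT. On the arrays labelled DKO against Ets2KO, 1 of the 14 recruitment genes rose and 1 fell. Of the 14 transition genes 3 rose and 1 fell, where 20.2% of all probe sets rose and 14.9% fell. S1pr3 fell by 2.73 (adjusted p = 0.026) and Cdh2, N-cadherin, which is in both lists, rose by 2.47 (adjusted p = 0.0115). Zeb1 at 0.97 (adjusted p = 0.0298), Fn1 at 0.51 (adjusted p = 0.0271) and Zeb2 at -1.61 (adjusted p = 0.00677) also passed. Zeb1, Fn1 and Zeb2 are named after their values were seen.

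For each member the 3 genes with the most similar profile over the 11 arrays were taken from 6451 genes, by Pearson correlation of values minus array medians. For Rgs5 they were Banp (0.892), Fxyd1 (0.887) and Chmp7 (0.848). For Acta2 they were Psme3 (0.908), Abce1 (0.903) and Wdr77 (0.898). For Tagln they were Cdkn2c (0.921), Plekhf1 (0.872) and Thbs1 (0.866). None of these 9 is a member, and Acta2 and Tagln were not among each other's 3.

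For Ldb3 the nearest were Usp46 (0.929), the targeted gene Ets2 (0.917) and Maoa (0.904). Without the arrays labelled DKO the value for Ets2 was 0.829 over 9 arrays. For Lmod1 they were Adamtsl4 (0.904), Cpe (0.883) and Poglut3 (0.865), for Des Map6 (0.819), Arhgef2 (0.795) and Ces5a (0.725), and for Cspg4 Tob1 (0.724), Ptpre (0.682) and Sod3 (0.678). These are the highest of 6451 correlations for each member, on 11 arrays that share groups and normalization.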

How the data were processed

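The deposited values are log2 expression per probe set. The submitters' processing notes name RMA, with no version. RMA as usually run brings arrays to a common distribution, and the lower medians of the arrays labelled DKO can shift every comparison with them. The platform annotation gave 1 symbol for 18824 of 20523 probe sets.

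All probe sets were fitted with limma (version 3.58.1, R 4.3.3) on 11 arrays with 4 group means and no covariate. Benjamini-Hochberg adjustment ran over all 20523, and calls are at adjusted p below 0.05. Of the 7 comparisons, those without DKO use deposited values, and those with DKO and the interaction use values minus array medians. Permutation tests were exact and two-sided. The fit was tested on simulated data. Member genes and lists were chosen with earlier results of these data known. Named genes are all members, Ets1, Ets2, up to 4 genes per list (those called in Ets1KO or Ets2KO against WT first, then the largest difference between Ets2KO and WT, at the brightest probe set) and the 3 most similar genes per member. Further ones are Srf, Pdgfrb, Xist, Eif2s3y and those said to be named or chosen after their values were seen. Alternatives varied the scale, normalization, probe set per gene, filter, arrays, block, weights and variance trend. Sequences are from RefSeq (GRCm38.p6). Figures were drawn with matplotlib 3.10.9.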

Additional observations from a re-analysis of the deposited data

Results flagged for a closer look

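By limma's interaction term, the difference with Ets2 loss and Cre was not the same in the Ets1-null groups as in those with Ets1 for 2 of the 4 Rgs5 probe sets. They are 2 of 11 member probe sets, or 18.2%, where 19.7% of all probe sets passed. The term was -4.67 for 1420940_x_at (adjusted p = 0.0454) and -6.64 for 1420942_s_at (adjusted p = 0.0443). Each call held in 2 of the 11 fits that left out 1 array, and both were lost under the replicate block (adjusted p = 0.0908 and 0.0868). With 1 probe set per gene 0 members passed. The term also takes in sex and, between Ets2KO and WT, the floxed Ets2 alleles, which cannot be told apart from it. It takes in the 2 arrays labelled DKO, on which neither Ets1 nor, on average, Ets2 was low, and its cause was not tested.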

How the results depend on the processing

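Calls among the 11 member probe sets depend on the settings. Of Ets1KO against WT, 0 were called in every alternative. Of Ets2KO against WT, array weights called 1, Acta2 (adjusted p = 0.0237), and the other settings 0. For Ets2KO against Ets1KO array weights also called 1. The deposited scale called 1 for DKO against WT, 1 against Ets1KO, 6 against Ets2KO and 5 for the interaction. There Des reversed to -0.68, -0.67, -0.66 and -0.65 in the same order. Tagln, Lmod1, Cspg4 and Rgs5 (1417466_at) also changed sign in some of these comparisons. All 12 columns gave 5 against Ets2KO and 5 for the interaction. For DKO against Ets2KO, 1 was called at the brightest probe set per gene, 1 at the mean of probe sets, 1 above the median level, 1 with array weights and 0 with those groups alone. For the interaction the same first 3 settings gave 0, and array weights 1. The replicate block, on numbers that do not pair the samples (correlations of deviations in 15 same-number pairs of -0.306 to 0.1), gave 1 for DKO against Ets2KO and 0 for the interaction, and changed no other count of members. Leaving out 1 array gave 0 to 1 for DKO against WT and against Ets1KO, 0 to 5 against Ets2KO and 0 to 4 for the interaction. The calls without DKO replicate 2 were Ldb3 against WT and Acta2 against Ets1KO (3.13, adjusted p = 0.0377), with the lone array assumed to vary like the other groups. Over all probe sets, 119 were called in Ets2KO against WT, and 0 to 2687 under the alternatives, with 0 under the replicate block. In Ets1KO against WT 1 was called, and 0 to 411. The other totals were 513 (6 to 5444) for Ets2KO against Ets1KO, 7389 (3163 to 10021), 7275 (3181 to 9812) and 7215 (3278 to 10019) for DKO against WT, Ets1KO and Ets2KO, and 4034 (1612 to 7283) for the interaction, and the lowest of the last 4 ranges are tests of 11015 genes. A fit with no DKO arrays, chosen after seeing the data, gave 166 and 3. Few arrays limit precision, and signal over background was not analysed here.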
